A study of Mus musculus with 15 samples.

Results

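The 10 genes described here, Eln, Fbn1, Ltbp2, Emilin1, Fbln1, Fbln2, Fbln5, Efemp1, Lox and Loxl1, encode elastin and the proteins of the microfibrils, fibulins and cross-linking enzymes around it. They were taken by symbol from the 31017 genes of each deposited count table, and all 10 were present in all 15 tables. The members were chosen by their levels in earlier results of these data, above all in the Dnmt1 RIP of Het against WT fibroblasts and, for Eln, in the m5C RIP. The tables come from RNA immunoprecipitation (RIP) in mice that carry a dominant Dnmt1 mutation, labelled Het and Hom, and in WT mice; Dnmt1 encodes the DNA methyltransferase that maintains methylation. For the Dnmt1 RIP, fibroblasts from tails were fixed with formaldehyde and 2 libraries each were made from Het, Hom and WT cells. For the m5C RIP, an antibody against 5-methylcytosine was used on messenger RNA of fibroblasts, with 1 Het, 1 Hom and 2 WT libraries, and of cortex, with 1 library of each genotype. Fibroblasts and cortex each have 1 library titled input, whose antibody label names IgG and whose genotype is not given. The labels name the mutation no further and give no age. Per the labels, the fibroblast lines were isolated from tails of littermates of the same sex, and nothing says how many lines or animals stand behind the libraries of a genotype, so the spread between libraries may be technical.

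Elastic fibres give skin, lung and large arteries their recoil. Elastin, secreted as the soluble monomer tropoelastin, is laid onto a scaffold of fibrillin microfibrils with the help of fibulins, and is then made insoluble by lysyl oxidases, which turn lysine side chains into cross-links. Dermal fibroblasts are among the cells that make these proteins, and LTBP2 and EMILIN1 are glycoproteins that sit with the microfibrils and at the border between microfibril and elastin. Dnmt1 is known for copying CpG methylation onto newly made DNA, and here its antibody was used to recover RNA.

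Levels are given as CPM, counts scaled to the same total in each library, leaving out 4 genes (Lars2, Gm42418, Gm26917 and Gm10800) that held 4.01 to 63.5% of a library. Total counts ranged from 217173 to 4913482, and were lowest in the WT Dnmt1 RIP (217173 and 463133) and in fibroblast input (228852, with 6006 genes detected). In these 3 libraries, 3 counts, the most that a count of 0 allows, come to 15.5, 8.68 and 31.5 CPM. Dnmt1 itself stood at 413 to 10690 CPM, with the 2 highest values in fibroblast m5C WT library 1 (10690.2 CPM) and Dnmt1 RIP Hom library 2 (10154 CPM). In fibroblast m5C, no gene of all 31017 had fewer counts in WT library 1 than in the Hom library, and 7163 of the 19511 genes detected in Hom had the same count in both, a relation found in no other pair of tables. The fitted fibroblast m5C fold changes of Eln, and that of Ltbp2 in Hom, are therefore also given without it. Other values that rest on WT library 1 include it unless stated. WT library 1 and Hom may thus not be separate measurements, and a likeness between them is not read. Gene Fam221b took 0.373, 0.748 and 0.595% of counts in Dnmt1 RIP Het library 1, Hom library 2 and WT library 2, against at most 0.00895% in the other Dnmt1 RIP libraries, so the Dnmt1 RIP pairs are also split in that way. Fibroblast markers (11 genes, among them Col1a1, Col1a2 and Pdgfra) summed to 28468, 27553, 25400 and 31820.4 CPM in fibroblast m5C Het, Hom and the WT libraries, against 497 to 605 CPM in cortex m5C, while neuron markers (10 genes) summed to 442 to 972 CPM in fibroblast m5C and 7223 to 7394 CPM in cortex m5C. The Dnmt1 RIP of fibroblasts stood apart from that: its neuron markers summed to 2750 to 4498 CPM, above its fibroblast markers in the Hom and WT libraries. Fibroblast input stood apart as well, with neuron markers nearly level with its fibroblast markers. Its neuron sum lay below those of the Dnmt1 RIP and above those of fibroblast m5C.

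Promoters are shown because the mutated enzyme methylates CpG, and a link of their letters to the RIP levels was not tested. RefSeq promoters of GRCm38.p6, which run from 250 bases before to 50 bases after a listed start, were matched by symbol for 7 of the 10 members. There were 9 promoters in all, and Eln, Lox and Loxl1 had no entry. A listed start need not be the gene start given below. The windows of Fbn1, Emilin1 and Fbln2 and the downstream window of Fbln5 lie inside the gene coordinates. Of the promoters with the fewest and the most CpG among members, and of Fbn1 between them, the letters are as follows, 5′ to 3′ on the gene's strand, with every CG in capitals.
Fbn1 (chr2:125506389-125506688, minus strand): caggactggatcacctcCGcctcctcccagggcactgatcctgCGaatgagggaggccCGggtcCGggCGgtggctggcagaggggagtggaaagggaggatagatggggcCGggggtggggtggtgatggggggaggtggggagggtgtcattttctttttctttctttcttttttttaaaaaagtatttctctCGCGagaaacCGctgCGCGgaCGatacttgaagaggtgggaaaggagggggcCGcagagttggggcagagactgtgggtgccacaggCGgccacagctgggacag
Emilin1 (chr5:30913536-30913835, plus strand): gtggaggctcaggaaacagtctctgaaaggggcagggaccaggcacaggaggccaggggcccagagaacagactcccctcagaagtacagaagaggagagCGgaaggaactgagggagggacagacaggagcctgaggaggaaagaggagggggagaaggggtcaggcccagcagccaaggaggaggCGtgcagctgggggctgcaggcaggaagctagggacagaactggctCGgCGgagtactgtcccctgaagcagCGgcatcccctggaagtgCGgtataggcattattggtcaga
Fbln5 (chr12:101819070-101819369, minus strand): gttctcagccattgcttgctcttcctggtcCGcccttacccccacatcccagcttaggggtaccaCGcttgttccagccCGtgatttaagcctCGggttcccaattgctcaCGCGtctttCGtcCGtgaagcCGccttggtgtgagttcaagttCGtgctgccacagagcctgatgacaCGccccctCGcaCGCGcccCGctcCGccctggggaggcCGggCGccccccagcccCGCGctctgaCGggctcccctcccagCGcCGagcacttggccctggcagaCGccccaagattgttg
Emilin1 held 6 CG, Fbn1 14 and this promoter of Fbln5 24, while a downstream promoter of Fbln5 held 8. Among the others, Fbln2 held 10, Efemp1 11, Ltbp2 20 and the promoters of Fbln1 12 and 24. The promoters of Fbln1 overlap. Over all 32851 promoters the median was 7 CG, with quartiles of 3 and 20, and 6 of the 9 member promoters lay between the median and the upper quartile. The TATA letters TATAAA, searched on both strands, were in none of the 9 promoters, against 13.6% of all promoters. The letters GGGCGG, which include a CG, were in 6 of the 9 promoters, against 35.7% of all, and TGANTCA was in that of Efemp1 alone, against 7.81% of all. These are matches of letters within the window and are not sites. No DNA methylation was measured in these files.

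In the m5C RIP of fibroblasts, the order of the members was led by a cross-linking enzyme. Per kilobase of exon, Lox, the founding lysyl oxidase, stood at 534, 289 and 351 CPM per kb in the Het, Hom and WT groups. Its relative Loxl1, which acts mainly on elastin, was at 238, 176 and 200.04 CPM per kb, and the fibulin Fbln2 at 251, 113 and 167 CPM per kb. These 3 led in each genotype, and the other 7 lay between 5.65 and 72.6 CPM per kb in Het, between 8.91 and 40.2 in Hom and between 22.2 and 40.2 in WT. Among the 7, the WT means of Efemp1, Emilin1, Ltbp2, Fbln1 and Fbln5 lay within 29.5 to 31.7 CPM per kb, and did not differ beyond the spread of the WT pair, with Eln lowest. Elastin, the structural protein of the group, was thus at the bottom of the order in Het and by the WT mean (5.65 CPM per kb in Het) but next after the 3 leaders in Hom (40.2 CPM per kb). In WT library 1 it stood at 35.5 CPM per kb and Ltbp2 was lowest, at 9.28 CPM per kb. In the Het Dnmt1 RIP the same 3 genes led, with Lox at 117, Loxl1 at 92.1 and Fbln2 at 71.7 CPM per kb and the other 7 at 10.3 to 17.5. The Hom and WT Dnmt1 RIP held all 10 members between 2.92 and 14.6 and between 2.64 and 16.9 CPM per kb. Fibroblast input was also led by Lox, at 66.0 CPM per kb (30 counts). Emilin1 followed there at 19.2 and Fbln2 at 13.2, with Loxl1 at 9.57, each from 9 counts or fewer.

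**Figure D1:**
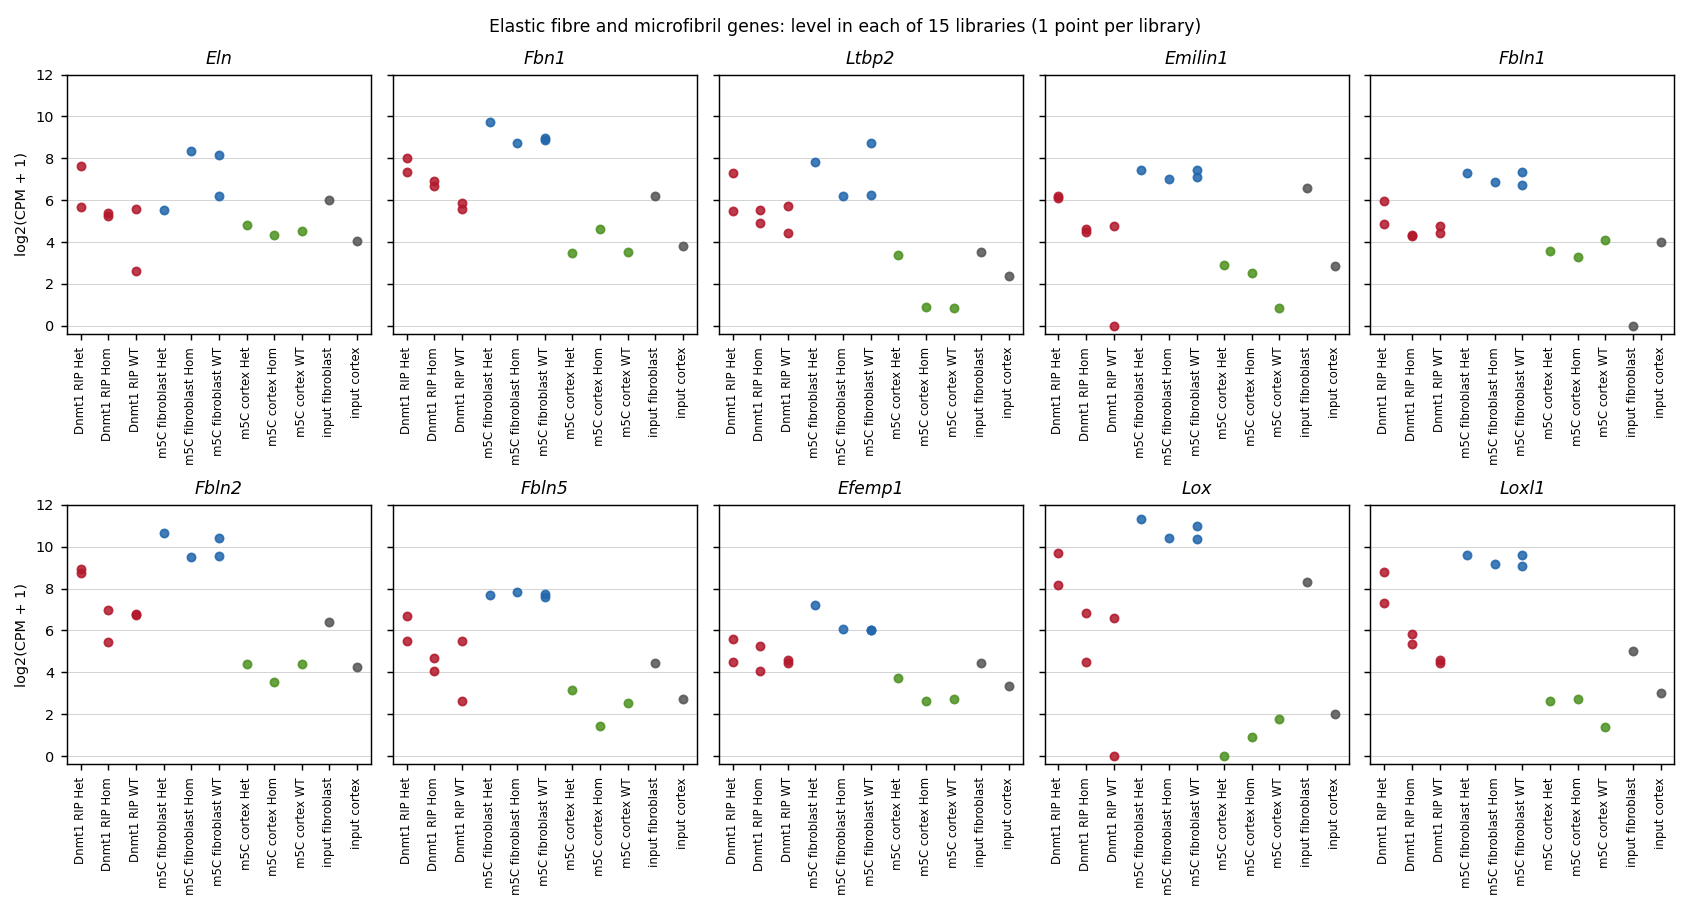
Level of each of the 10 genes in each of the 15 libraries, as log2(CPM + 1) on the vertical axis, with 1 point per library and groups along the horizontal axis (red, Dnmt1 RIP; blue, m5C RIP of fibroblasts; green, m5C RIP of cortex; grey, inputs). The 4 fibroblast m5C libraries lie above the 3 cortex m5C libraries for every gene shown, a relation not counted over all genes. In the Dnmt1 RIP both Het libraries lie above both WT libraries for 8 of the 10 genes, against 14.7% of 18450 genes.

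In the Dnmt1 RIP, the members stood higher in Het than in WT libraries, and in Hom they were near WT. Summed over the 10 genes, the level was 2599.7 and 1358 CPM in Het, 346 and 599.9 CPM in Hom and 248 and 501 CPM in WT, so that the Het mean was 5.28 times and the Hom mean 1.26 times the WT mean. The members were chosen with this contrast known, so the values describe it and do not test it. In edgeR's quasi-likelihood fit, 0% of 13589 genes passed an adjusted p of 0.05 for Het against WT, and none of the members did, although 868 genes had an unadjusted p below 0.05. DESeq2 called 0.0809% of genes, Loxl1 among them, and edgeR with no filter on low counts called 0.663% of 28972 genes, 5 members among them, from which nothing is read. All 10 members had a positive log2 fold change, with a median of 2.16, against 0.03 over all genes tested. Both Het libraries lay above both WT libraries for 8 members, and 14.7% of all 18450 genes with a mean of at least 5 CPM did so.

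Of the core protein, Eln (chromosome 5, 134702593 to 134747323, minus strand, mm10) was at 199 and 50.1 CPM in the Het libraries, 37.2 and 40.3 CPM in the Hom libraries and 5.18 and 46.3 CPM in the WT libraries. The WT libraries held 1 and 16 counts of it, and Het library 1 stood above all others, while Het library 2 lay close to WT library 2. The log2 fold change was 2.23 ± 0.84 (SE) for Het and 0.40 ± 0.86 for Hom against WT, and that for Het was 0.83 without Het library 1, 1.52 without WT library 1 and 4.81 without WT library 2, which leaves 1 WT count.

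Among the microfibril genes, Fbn1 (chromosome 2, 125300594 to 125507993, minus strand), which encodes fibrillin-1, the backbone of the microfibril, was at 261 and 163 CPM in the Het libraries, 101 and 119 CPM in the Hom libraries and 46.6 and 57.9 CPM in the WT libraries. Both Het libraries were highest, both Hom libraries lay between, and both WT libraries were lowest, with no overlap, an order that Loxl1 shared. The share of all genes in this order was not counted. Both Hom libraries lay above both WT libraries for 17.5% of 19367 genes. The log2 fold changes of Fbn1 were 2.13 ± 0.48 for Het and 1.05 ± 0.47 for Hom against WT. Ltbp2 (chromosome 12, 84783212 to 84876532, minus strand), a latent TGF-beta binding protein of the microfibril, was at 157 and 43.5 CPM in the Het libraries, 29.2 and 44.5 CPM in the Hom libraries and 20.7 and 52.1 CPM in the WT libraries, and here only Het library 1 stood out (1.51 ± 0.72 for Het, -0.04 ± 0.74 for Hom). Emilin1 (chromosome 5, 30913402 to 30921277, plus strand) was at 68.5 and 72.5 CPM in the Het libraries, 23.9 and 21.0 CPM in the Hom libraries and 0 and 26.0 CPM in the WT libraries, with 0 and 9 counts in the WT libraries. Its Het libraries agreed closely and lay above the rest, at a log2 fold change of 2.27 ± 0.82 for Het and 0.50 ± 0.87 for Hom.

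The fibulins, which bridge elastin, microfibrils and cells, differed among themselves. Fbln2 (chromosome 6, 91212455 to 91272540, plus strand) was at 481 and 432 CPM in the Het libraries, 42.5 and 124 CPM in the Hom libraries and 109 and 107 CPM in the WT libraries. Its Het libraries were close to each other, as were its WT libraries, and these groups did not overlap (2.20 ± 0.55 for Het, -0.32 ± 0.54 for Hom). Fbln5 (chromosome 12, 101746565 to 101819055, minus strand), which binds elastin and is needed for elastic fibre assembly in mice, was at 104 and 44.8 CPM in the Het libraries, 15.9 and 24.4 CPM in the Hom libraries and 5.18 and 43.4 CPM in the WT libraries, with Het library 2 just above WT library 2 (1.56 ± 0.79). Fbln1 (chromosome 15, 85205949 to 85286535, plus strand) was at 28.4 and 61.9 CPM in the Het libraries, 18.6 and 19.3 CPM in the Hom libraries and 20.7 and 26.0 CPM in the WT libraries, and the gap between the lowest Het and the highest WT library was 28.4 against 26.0 CPM. Efemp1 (chromosome 11, 28853204 to 28926743, plus strand), also called fibulin-3, was at 21.7 and 47.4 CPM in the Het libraries, 15.9 and 37.8 CPM in the Hom libraries and 20.7 and 23.1 CPM in the WT libraries, the groups overlapped, and its log2 fold change of 0.73 ± 0.72 was the smallest of the 10.

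The cross-linking enzymes had the largest fold changes. Loxl1 (chromosome 9, 58287738 to 58313186, minus strand) was at 448 and 159 CPM in the Het libraries, 39.9 and 56.3 CPM in the Hom libraries and 20.7 and 23.1 CPM in the WT libraries. The libraries of this gene ran in the order Het, Hom, WT, which was not counted over all genes. The 95% counting intervals of Hom library 1 (22.3 to 65.8 CPM, 15 counts) and WT library 2 (9.99 to 45.6 CPM, 8 counts) overlapped. The log2 fold changes of Loxl1 were 3.91 ± 0.66 for Het and 1.13 ± 0.66 for Hom against WT. Lox (chromosome 18, 52516067 to 52529867, minus strand) was at 832 and 283 CPM in the Het libraries, 21.3 and 113 CPM in the Hom libraries and 0 and 95.5 CPM in the WT libraries, with 0 and 33 counts in the WT libraries. The WT libraries of Lox thus spread widely, and its log2 fold change of 3.53 ± 1.16 for Het carries the largest SE of the members. It was 2.42 without Het library 1 and 2.65 without WT library 1, and without WT library 2 no count of Lox is left in WT. That of Loxl1, with 4 and 8 counts in the WT libraries, was 2.90 without Het library 1.

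Hom and Het were compared directly in the same fit. All 10 members had a negative log2 fold change for Hom against Het, with a median of -1.80 against -0.02 over all genes tested; the fit called 0% of genes, and 629 had an unadjusted p below 0.05. The values were -3.14 ± 1.10 for Lox, -2.78 ± 0.57 for Loxl1, -2.52 ± 0.54 for Fbln2 and -1.07 ± 0.43 for Fbn1, with -0.38 ± 0.64 for Efemp1 at the small end. Both Hom libraries lay below both Het libraries for the same 8 members as above, against 11.3% of 18977 genes. DESeq2 called 15 genes. This comparison shares the Het libraries with that of Het against WT and is not independent of it.

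For Hom against WT, the members had no common direction. The log2 fold change was positive for 6 of 10, with a median of 0.37 against 0.01 over all genes tested. The edgeR fit called 0% of genes, with 309 at an unadjusted p below 0.05, and DESeq2 called 0. Hom libraries lay above WT libraries for Fbn1 and Loxl1, against 17.5% of 19367 genes, and below for Fbln1 by a narrow margin, against 12.7%. The median was -0.34 without WT library 1 and 1.37 without WT library 2, so its sign rests on which WT library is used. Fbn1 and Loxl1 stood above WT in either case.

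Within each genotype, the library with the higher Fam221b share also had the higher summed member level. Compared within that split, the Het level was 5.19 times WT between the libraries with Fam221b (2599.7 against 500.5 CPM) and 5.47 times WT between those without (1358 against 248 CPM). The Hom level was 1.2 and 1.39 times WT in the same order. Each side of the split holds 1 library per genotype, and the part of what goes with Fam221b in the Het difference was not tested. Fibroblast markers moved with the members: they summed to 22045 and 8286 CPM in Het, 1223 and 2699 CPM in Hom and 600.4 and 2205 CPM in WT, with 10 or 11 of the 11 detected in each library (Twist1 at 0 in WT library 1). Macrophage markers (10 genes, among them Csf1r and the C1q genes) did not follow the members between the Het libraries, at 207 and 2456 CPM in Het, 226 and 655 CPM in Hom and 145 and 561 CPM in WT; the library with the higher member level held the lower macrophage sum. Mural cell markers, of smooth muscle and pericytes that also make elastin, stayed within 234 to 373 CPM over the 6 libraries, and neuron markers were lowest in Het (2969 and 2749.8 CPM, against 4056 and 3117 CPM in Hom and 4498 and 3275 CPM in WT). The part of these marker differences in the member result was not tested. In bulk libraries, fewer cells of a type and less RNA per cell cannot be told apart, nor, with no input per genotype, RNA bound and RNA present.

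Olfactory receptor genes, which fibroblasts are not known to use, give a level against which to read the weak members. Over 1133 such genes the Dnmt1 RIP held 1.43 and 1.29 CPM per kb in Het, 2.54 and 1.67 in Hom and 1.77 and 1.89 in WT, against 0.358 to 0.546 in fibroblast m5C RIP. The members together stood 29.8 and 17.3 times above this level in Het, 2.23 and 5.88 times in Hom and 2.3 and 4.32 times in WT, and 118 to 307 times in fibroblast m5C RIP. All 10 members were above it in both Het libraries, in Hom library 2 and in WT library 2, but 9 in Hom library 1 and 6 in WT library 1. In WT library 1, Eln and Fbln5 had 1 count each, Ltbp2, Fbln1, Efemp1 and Loxl1 4 each and Emilin1 and Lox none, so the differences of these genes are not measured well at that depth.

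**Figure D2:**
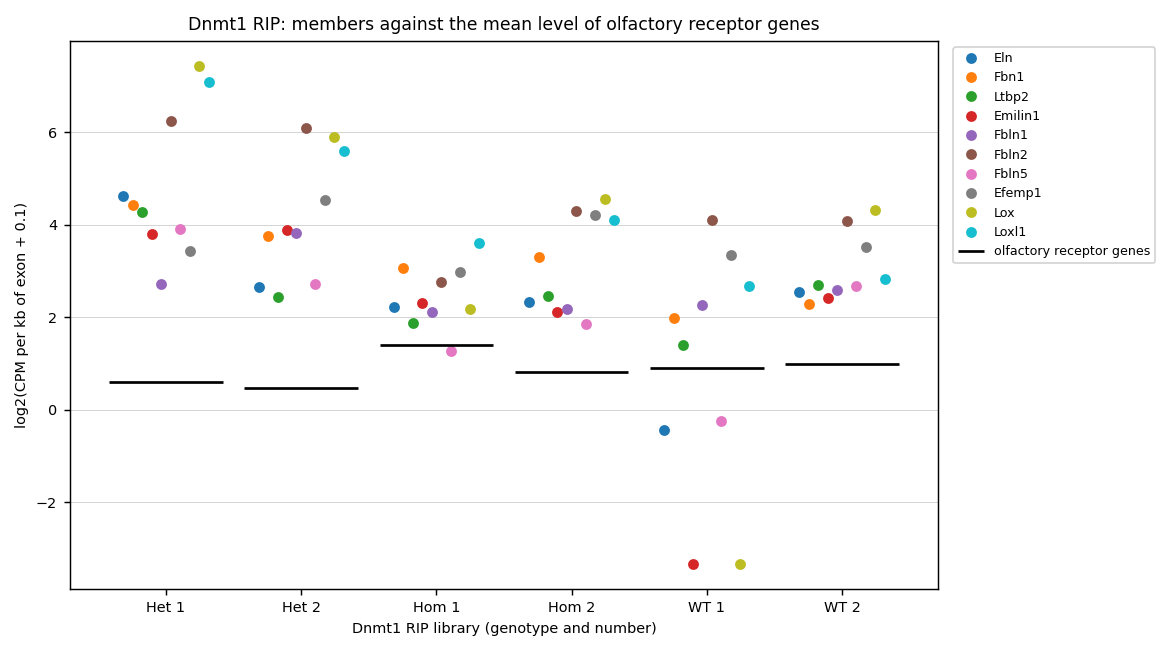
Level of the 10 genes per kilobase of exon in the 6 Dnmt1 RIP libraries, as log2(CPM per kb + 0.1), with 1 coloured point per gene and a black bar at the mean level of 1133 olfactory receptor genes. Lox, Loxl1 and Fbln2 stand clear of the other genes in both Het libraries, and Emilin1 and Lox are at 0 counts in WT library 1, the lowest points.

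Other genes of the pathway, 38 in lists of microfibril, assembly, cross-linking, emilin and matrix-degradation genes, lay in the same direction in Het but less uniformly. Of the 35 that could be tested, 27 had a positive log2 fold change for Het against WT, with a median of 1.00, and edgeR called none; with no filter on low counts it called 3 of 38 higher. The 4 with the smallest p were the gelatinase Mmp2 (1.88 ± 0.47), the metalloproteinase inhibitor Timp2 (1.71 ± 0.45), Efemp2 (2.52 ± 0.80), the fibulin-4 that brings lysyl oxidase to elastin, and Bmp1 (1.62 ± 0.58), the protease that activates lysyl oxidase. For Hom against WT 23 were positive, with a median of 0.21, led by Hmcn1 (1.14 ± 0.45), Loxl3 (1.80 ± 0.92), Ltbp1 (1.25 ± 0.66) and Adamtsl4 (1.02 ± 0.70). For Hom against Het 12 were positive, with a median of -0.42, and the smallest p belonged to Adamtsl5 (-2.38 ± 0.59), Mmp2 (-1.63 ± 0.43), Timp2 (-1.68 ± 0.45) and Pcolce (-2.20 ± 0.80), an enhancer of procollagen processing. edgeR called none of the 35 in either comparison, and with no filter on low counts it called 2 of 38 lower in Hom than in Het.

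In the m5C RIP of fibroblasts, Eln, Ltbp2 and Efemp1 differed most between libraries; Eln and Ltbp2 differed within the WT pair too, while Efemp1 was high in Het alone. The sum of the 10 was 6721 CPM in Het, 4035 CPM in Hom and 3952 and 5796 CPM in WT. Against WT, the median log2 fold change of the members was 0.23 in Het, with 8 of 10 positive, and -0.23 in Hom, with 3 of 10 positive, against -0.02 and -0.01 over all genes. As log2 ratios of CPM + 1 to single WT libraries, the Het median was 0.68 for WT library 1, with 8 members higher. For WT library 2 the Het median was 0.047, with 6 members higher, and the Hom median -0.44, with 3 higher. With 1 Het and 1 Hom library, the spread comes from the WT pair alone and the lone library is assumed to vary like it. The edgeR fit called 0.0326% of 12273 genes for Het and 0.00815% for Hom, and 22 and 8 of 30 pathway genes were positive, with none called.

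Eln was at 45.7 CPM in Het, 325 CPM in Hom and 288 and 72.1 CPM in WT. The WT libraries were apart by more than the Het library was from WT library 2: Hom and WT library 1 were high, Het and WT library 2 were low. Its log2 fold change was -1.90 ± 0.44 for Het (it is among the 0.0244% of genes that edgeR called lower, from which nothing is read, since Eln was chosen with this contrast known) and 0.90 ± 0.38 for Hom. Het was -0.69 without WT library 1 and -2.63 without WT library 2, values with no test since no residual spread is left. The call was not made with total counts as the only scaling, with no filter or by DESeq2. Hom was 2.11 without WT library 1 and 0.16 without WT library 2. The counts of WT library 1 that exceed the Hom table come to 249780 over all genes, and 8 of the 231 Eln counts are among them. Scaled to their own total without the 4 dominant genes, those 8 counts come to 68.3 CPM (exact Poisson 95% interval 29.5 to 135), beside 72.1 CPM in WT library 2; the interval covers counting error only. Taken in the same way, the interval held the level of WT library 2 for 4 of the 10 members (Eln, Emilin1, Fbln5 and Efemp1), lay below it for 5 (among them Ltbp2, at 94.0 CPM beside 426 CPM in WT library 2) and above it for Fbn1.

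Ltbp2 ran the other way. It was at 222 CPM in Het, 72.9 CPM in Hom and 76.0 and 426 CPM in WT, so that WT library 2 was highest and Hom and WT library 1 were low and alike. The log2 fold change was -0.21 ± 0.40 for Het and -1.85 ± 0.46 for Hom, and the Hom value was -2.61 without WT library 1 and -0.07 without WT library 2. In the fit over both tissues, which called 0% of 14193 genes for Hom against WT, with 122 at an unadjusted p below 0.05, leaving out WT library 1 gave 17 called genes (0.121% of 14064). Ltbp2 (-2.45 ± 0.35) and Eln (1.31 ± 0.31) were among them. For both members this is a description, from which nothing is read. Leaving out WT library 2 instead gave 0.06 for Eln and -0.04 for Ltbp2. Each of these fits held 1 Hom and 1 WT library per tissue. In cortex, Ltbp2 had 2 counts in Hom and 1 in WT, too few to compare. Eln was lower there in Hom (19.1 CPM) than in WT (21.9 CPM), with overlapping counting intervals. The values without WT library 1 thus rest on the fibroblast pair. Mural markers, which include genes of smooth muscle, were 1212 CPM in Het, 436 CPM in Hom and 379 and 1049 CPM in WT; like Ltbp2, they were high in Het and WT library 2 and low in Hom and WT library 1, where Tagln and Des were at 0. Macrophage markers were 3573 CPM in Het, 6190.4 CPM in Hom and 5303 and 3435 CPM in WT; like Eln, they were high in Hom and WT library 1 and low in Het and WT library 2. WT library 1 and Hom may not be separate measurements, since no gene had fewer counts in WT library 1, so their likeness is not read. The part of either list in these differences was not tested.

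Efemp1 was at 148 CPM in Het, 65.6 CPM in Hom and 64.8 and 64.4 CPM in WT, with Het above the other 3 libraries, which were nearly equal (1.21 ± 0.37 for Het, 0.01 ± 0.42 for Hom). Fbn1 was at 839 CPM in Het, 426 CPM in Hom and 473 and 501 CPM in WT, again with Het highest (0.80 ± 0.45). Fbln2, at 1597 CPM in Het, 717 CPM in Hom and 746 and 1383 CPM in WT, and Lox, at 2551 CPM in Het, 1379.5 CPM in Hom and 1312 and 2040.3 CPM in WT, had Het highest and Hom or WT library 1 lowest, with WT library 2 nearer to Het and WT library 1 nearer to Hom. Loxl1 was at 784 CPM in Het, 579 CPM in Hom and 539 and 779.7 CPM in WT, and Het and WT library 2 were alike. Emilin1, Fbln1 and Fbln5 stayed within 127 to 173, 106 to 161 and 195 to 227 CPM, with log2 fold changes between -0.30 and 0.21. Loxl1, the member that stood farthest from WT in the Het Dnmt1 RIP, was at 0.26 ± 0.48 here.

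**Figure D3:**
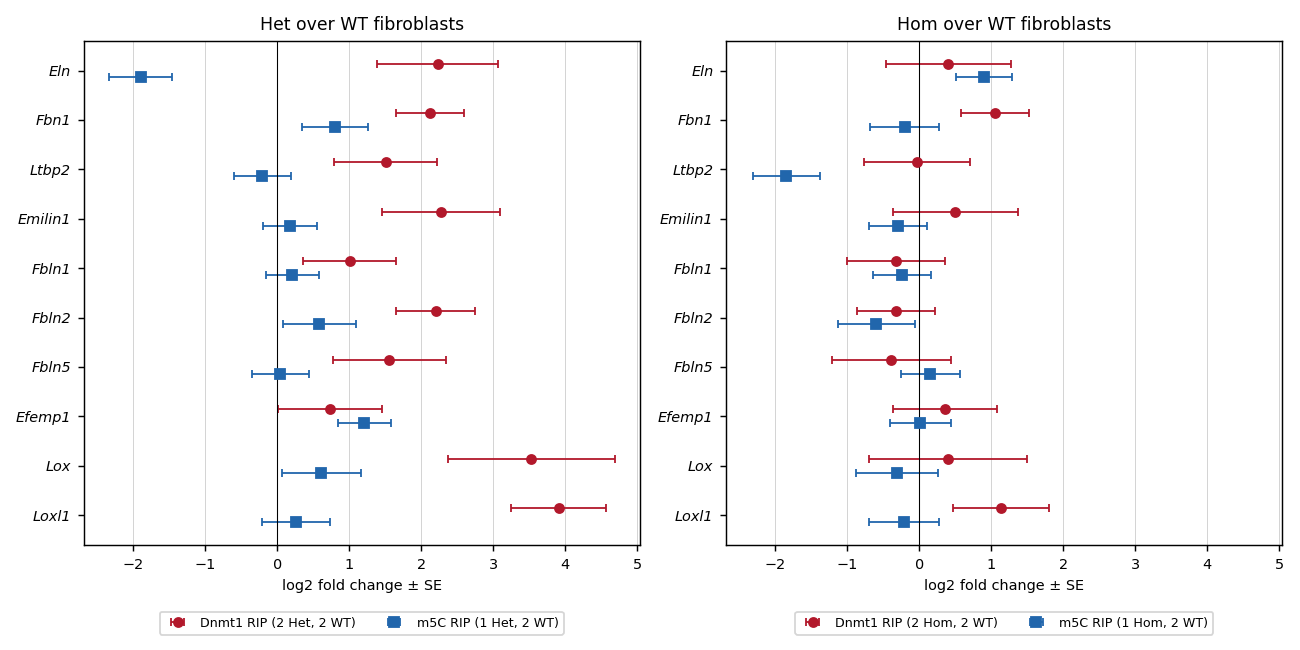
Log2 fold change of each gene, with bars of 1 SE, for Het over WT (left) and Hom over WT (right) in fibroblasts, from the Dnmt1 RIP (red circles) and the m5C RIP (blue squares). The red circles for Het lie right of 0 for all 10 genes while the blue squares, other than Eln and Efemp1, lie between -0.21 (Ltbp2) and 0.80 (Fbn1), and for Hom the blue square of Ltbp2 at -1.85 lies farthest from 0.

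The difference between the antibodies in the Het effect was fitted as an interaction over the 10 fibroblast libraries. It was positive for 9 of 10 members, with a median of 1.69 against 0.20 over all genes, and the fit called 0% of 17124 genes, with 573 at an unadjusted p below 0.05. The interaction contains the Het against WT contrast of the Dnmt1 RIP, with which the members were chosen, so these values are a description. The largest values were 4.12 ± 1.28 for Eln, from a low Het value in the m5C RIP and a high one in the Dnmt1 RIP, and 3.67 ± 1.04 for Loxl1, while Efemp1 was at -0.41 ± 0.85. The value of Eln was 2.94 without m5C WT library 1, 2.79 without Dnmt1 RIP Het library 1 and 6.71 without Dnmt1 RIP WT library 2. For Hom 7 of 10 were positive, with a median of 0.62 against 0.20, and the fit called 0%, with 203 at an unadjusted p below 0.05.

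Between tissues, every member was higher in the m5C RIP of fibroblasts than of cortex. This contrast was fitted with genotype as a covariate over 4 fibroblast and 3 cortex libraries, and it called 63.9% of 14193 genes, 33.0% being higher and 30.9% lower in fibroblasts. All 10 members passed, with a median log2 fold change of 5.49 against 0.06 over all genes, and for none did the tissues overlap. The share of all genes with no overlap between tissues was not counted, so nothing particular to the members is read from it. Lox ranged over 1312 to 2551 CPM in fibroblasts and 0 to 2.44 CPM in cortex, where the libraries held 0, 2 and 3 counts in Het, Hom and WT, and its log2 fold change was 10.73 ± 0.47 (edgeR adjusted p = 6.51e-10). Loxl1 ranged over 539 to 784 CPM in fibroblasts and 1.63 to 5.65 CPM in cortex (7.35 ± 0.35). Lox was thus at or near 0 counts in cortex, and Loxl1 was low there but detected.

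Among the fibulins, Fbln2 ranged over 717 to 1597 CPM in fibroblasts and 10.4 to 20.4 CPM in cortex (6.14 ± 0.32) and Fbln5 over 195 to 227 CPM in fibroblasts and 1.74 to 8.01 CPM in cortex (5.67 ± 0.32). Fbln1 and Efemp1 differed less, at 106 to 161 CPM in fibroblasts and 8.69 to 16.3 CPM in cortex for Fbln1 (3.61 ± 0.28) and 64.4 to 148 CPM in fibroblasts and 5.22 to 12.4 CPM in cortex for Efemp1 (3.69 ± 0.26). Fbn1 ranged over 426 to 839 CPM in fibroblasts and 10.2 to 23.9 CPM in cortex (5.31 ± 0.35), with the cortex Hom library above the other cortex libraries at 55 counts, against 14 in Het and 13 in WT. Emilin1 ranged over 127 to 173 CPM in fibroblasts and 0.813 to 6.56 CPM in cortex (5.26 ± 0.34) and Ltbp2 over 72.9 to 426 CPM in fibroblasts and 0.813 to 9.47 CPM in cortex (5.79 ± 0.68), both with 1 count in the cortex WT library. Eln had the smallest difference, at 45.7 to 325 CPM in fibroblasts and 19.1 to 27.0 CPM in cortex (2.84 ± 0.52, edgeR adjusted p = 0.000244), while its Het fibroblast library was low and its cortex level among the highest of the members there. Because Eln was chosen from its m5C levels, its value here is a description. Per kb, Efemp1 led in cortex Het and Hom, at 6.08 and 2.56 CPM per kb, and Fbln1 in cortex WT, at 3.72 CPM per kb, where Efemp1 stood at 2.79. Eln was second in Het and Hom and Lox was lowest in Het, at 0. With 1 library per genotype, differences within cortex have no replicate check.

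The wider pathway was higher in fibroblasts as well, with exceptions. Of 34 genes tested 23 passed as higher and 2 as lower, against 33.0% and 30.9% of all 14193 genes. The smallest p belonged to Pcolce (5.92 ± 0.26), Mmp14 (6.88 ± 0.34), a membrane-bound collagenase, Mfap5 (7.80 ± 0.39), a microfibril-associated glycoprotein, and Efemp2 (5.47 ± 0.29). Both genes called lower in fibroblasts, Adamts17 (-1.44 ± 0.44) and Thsd4 (-0.83 ± 0.29), belong to the ADAMTS and ADAMTS-like family, whose members bind fibrillin; they are named here because they are the full set called in that direction.

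**Figure D4:**
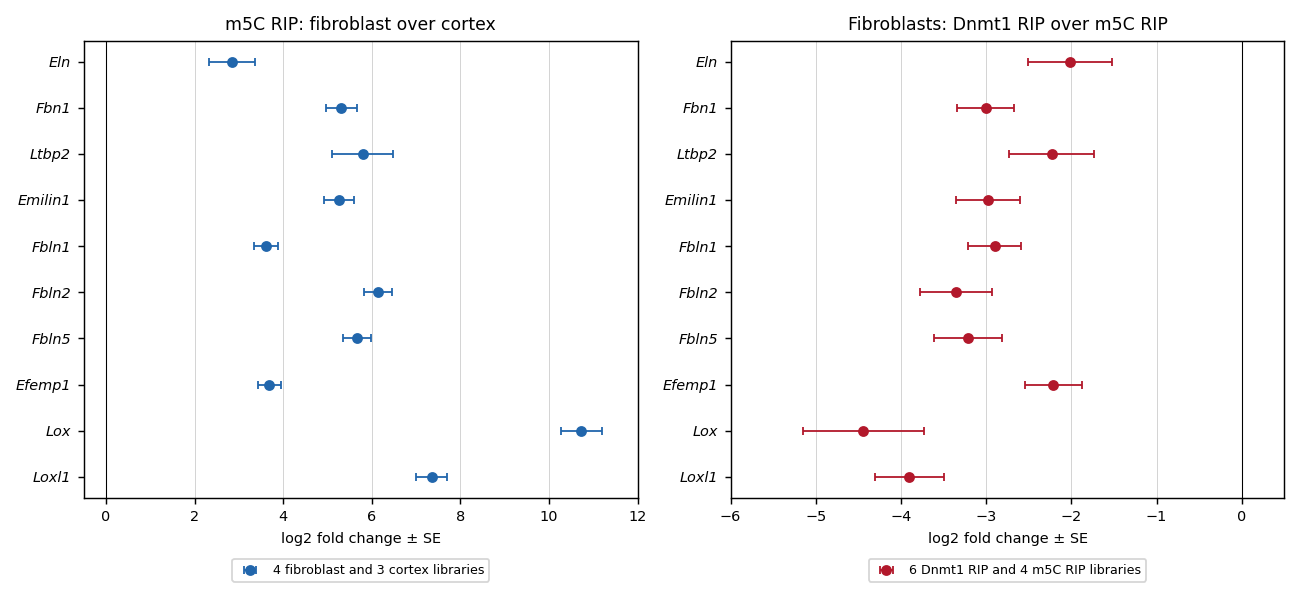
Log2 fold change of each gene, with bars of 1 SE, for fibroblast over cortex in the m5C RIP (left) and for the Dnmt1 RIP over the m5C RIP in fibroblasts (right). Every point lies right of 0 on the left, from 2.84 for Eln to 10.73 for Lox, and left of 0 on the right, from -2.02 for Eln to -4.44 for Lox.

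The Dnmt1 antibody recovered less of every member than the m5C antibody did. In the fit of 6 Dnmt1 RIP and 4 m5C RIP libraries of fibroblasts, averaged over genotypes, 37.6% of 17124 genes were called, 21.4% being lower in the Dnmt1 RIP. All 10 members were lower, with a median log2 fold change of -2.99 against 0.24 over all genes. The members were chosen with levels in these libraries known, so their values are a description. Lox (-4.44 ± 0.71) and Loxl1 (-3.90 ± 0.41) differed most, Fbln2 (-3.35 ± 0.43), Fbln5 (-3.21 ± 0.40), Fbn1 (-3.01 ± 0.34), Emilin1 (-2.98 ± 0.38) and Fbln1 (-2.90 ± 0.32) followed, and Ltbp2 (-2.23 ± 0.50), Efemp1 (-2.21 ± 0.34) and Eln (-2.02 ± 0.49, edgeR adjusted p = 0.00549) differed least. The m5C RIP began from oligo-dT purified messenger RNA and the Dnmt1 RIP from fixed cells, so antibody and preparation cannot be told apart. Fibroblast markers were also lower in the Dnmt1 RIP (600 to 22045 CPM, against 25400 to 31820 CPM in the m5C RIP) and neuron markers higher, as given above, and their part in the difference was not tested.

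Read as a share, the summed level in the Dnmt1 RIP was 29.4% of that in the m5C RIP in Het, 11.7% in Hom and 7.68% in WT. In Het the share was 21.9 to 45.1% for 9 members and 272% for Eln, which was the 1 case of a member above its m5C level. In WT it ran over 2.85% for Lox, 3.32% for Loxl1 and 33.9% for Efemp1, the highest. Lox and Loxl1, the leading members of the m5C RIP per kb, thus had the lowest shares in WT. In Het their shares were 21.9 and 38.7%, and that of Lox was again the lowest of the 10. Of 38 other pathway genes, 18 were called lower in the Dnmt1 RIP, with the smallest p for Mmp2 (-2.59 ± 0.29), Timp2 (-3.15 ± 0.38), the lysosomal protease Ctss (-4.07 ± 0.51) and Efemp2 (-3.70 ± 0.51), and 5 were called higher. Those 5, the full set called in that direction, were Tll1 (2.17 ± 0.53), Adamts17 (1.79 ± 0.45), Adamtsl2 (2.18 ± 0.60), Thsd4 (1.17 ± 0.35) and Emilin3 (3.44 ± 1.09). Over all 17124 genes, 21.4% were called lower and 16.2% higher, so nothing particular to the pathway is read from the 5.

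Against input, no member passed the test with either antibody. The fibroblast input held few counts of them: 30 of Lox, 9 of Emilin1, 8 of Fbln2, 7 of Fbn1, 6 of Eln, 3 of Loxl1, 2 each of Fbln5 and Efemp1, 1 of Ltbp2 and 0 of Fbln1. Lox was thus at 315 CPM in input, where 832 and 283 CPM were seen in the Het Dnmt1 RIP, 21.3 and 113 CPM in Hom and 0 and 95.5 CPM in WT. The fit of all 6 Dnmt1 RIP libraries over input called 9.22% of 16558 genes, 6.78% as higher, and none of the members, whose log2 fold changes ran from -1.42 ± 1.10 for Emilin1 to 2.39 ± 1.71 for Ltbp2 among the 9 with counts in input. DESeq2 called 285 genes in that comparison. The m5C RIP over input, with tissue as a covariate, called 0.683% of 14501 genes, 0.0276% as higher, and none of the members. All 10 members had a positive estimate, from 0.22 ± 0.54 for Emilin1 to 1.32 ± 0.68 for Fbn1, and the median was 0.97 against 0.21 over all genes. In cortex the summed level was 110.0, 81.3 and 85.3 CPM in m5C Het, Hom and WT, against 96.8 CPM in input. In fibroblasts it was 3952 to 6721 CPM in the m5C RIP, against 715 CPM in input. Fibroblast markers were also lower in fibroblast input than in fibroblast m5C, and neuron markers higher. The part of these marker differences in the comparisons with input was not tested. The direction of the estimates rests on the fibroblast input: without it, 8 of the 10 members turned negative (Lox -1.59, Loxl1 -0.74), with a median of -0.43.

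The genes whose profile over the 10 fibroblast antibody libraries was nearest to the members' mean profile were looked for among 17022 genes. The measure was the root mean square difference of log2(CPM + 1) values, each profile centred on its own mean. The 5 nearest genes that are no members were Itgb1 (0.33), a subunit of matrix-binding integrins, Mxra8 (0.36), Col5a2 (0.40), a chain of type V collagen, Vat1 (0.40) and Nfix (0.41), a transcription factor. Itgb1 was at 458 and 188 CPM in Het, 101 and 89.1 CPM in Hom and 41.4 and 142 CPM in WT in the Dnmt1 RIP, and at 1284 CPM in Het, 748 CPM in Hom and 726 and 900.0 CPM in WT in the m5C RIP. Among the members, Fbln5 lay closest to the mean profile (0.35) and Lox farthest (1.86), with 0 counts in WT library 1. These libraries share depth and antibody, so the likeness is a description.

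Members differ in transcript length and in cytosine content, the base that the m5C antibody recognises when methylated. In the GENCODE M21 transcripts, the share of C ranged from 23.1% in Lox and 23.1% in Efemp1 to 29.5% in Ltbp2 and 32.8% in Loxl1, against a median of 24.2% over 21684 protein-coding genes. Lox and Loxl1, the leading members of the m5C RIP per kb, lay at the low and the high end of this range. Transcript length ran from 2037 bases in Efemp1 to 11971 bases in Fbn1.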

How the data were processed

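RNA of tail fibroblasts and cortex was recovered with antibodies against Dnmt1 or m5C. Per the labels' protocols, cells for the Dnmt1 RIP were fixed in 1% formaldehyde, the m5C RIP used 1 ug of messenger RNA, and ribosomal depletion as well as polyA enrichment are named. Per the submitters' processing notes, the tools were Trim Galore 0.4.1, HISAT2 and featureCounts, on mm10. Annotation and strand setting were not stated, so overlapping and antisense genes are not told apart. The authors deposited raw counts by gene symbol, with 1 table per library. Besides genes, 6 of the tables list 5 summary entries (63.2 to 89.5% of reads not aligned, 4.36 to 18.4% in no feature), which stayed out of totals and tests. GENCODE M21 matched 30416 of 31017 symbols.

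The members and gene lists were chosen with earlier results of these data known. Member values in the genotype comparisons, the interactions and the antibody comparison are therefore descriptions, as is that of Eln between tissues. Member values between tissues, antibodies and input are read beside the share of all genes called. Groups came from the titles and genotype labels. Tests used edgeR 4.0.16 in R 4.3.3 on all genes: filterByExpr by group, TMM, glmQLFit and glmQLFTest, with Benjamini-Hochberg adjustment over all genes tested and a threshold of 0.05. The common biological coefficient of variation was 0.424 in the Dnmt1 RIP (3 residual degrees of freedom), 0.247 in fibroblast m5C (1), 0.205 in both tissues (3), 0.406 in the antibody fit (4), and 0.458 and 0.342 over input (5 and 6). SE is the log2 fold change over the square root of F. The fits were tested on simulated data. In the Dnmt1 RIP they recovered 15% of 4-fold and 74% of 16-fold changes for Het against WT. For Hom against WT they recovered 14% and 80%. Between tissues they recovered 79% and 93%, and between antibodies 64% and 80%. Most 4-fold changes would thus go uncalled in the Dnmt1 RIP. Intervals are 95% and cover counting error only. Alternatives were RLE size factors, total counts, no filter, DESeq2 1.42.0, removal of 4 dominant genes, each library left out and the replicate number as a block; the split by Fam221b was added after the data were seen. Named were all members, up to 4 pathway genes of smallest p per comparison and the 5 genes nearest in profile. Python 3.11.15, pandas 2.3.3, numpy 2.4.6, SciPy 1.17.1, matplotlib 3.10.9 and limma 3.58.1 were used.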

Additional observations from a re-analysis of the deposited data

Results flagged for a closer look

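Members with at least 10 counts in each m5C library compared were looked at for opposite signs in the tissues, with the mutant fibroblast library above or below both WT libraries; this was so for Eln and Fbn1, and members with fewer counts were not compared in this way. With 1 mutant library per tissue the difference between tissues was not tested. For Eln, the log2 ratio of Het to WT was -1.98 in fibroblasts (to the WT mean) and 0.30 in cortex, and that of Hom to WT was 0.85 in fibroblasts and -0.20 in cortex. For Fbn1, the log2 ratio of Het to WT was 0.78 in fibroblasts and -0.051 in cortex (14 counts in Het and 13 in WT, which counting error does not tell apart), and that of Hom to WT was -0.19 in fibroblasts and 1.18 in cortex, where the counts were 55 in Hom and 13 in WT. The fitted fibroblast value of Eln in Hom was 2.11 without WT library 1 and 0.16 without WT library 2.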

How the results depend on the processing

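All 10 members were higher in fibroblasts than in cortex under all 130 alternative values and lower in the Dnmt1 RIP than in the m5C RIP under all 150. Counts of genes called moved as follows. Het against WT in the Dnmt1 RIP called 192 genes with no filter, 11 by DESeq2 and 0 to 38 with each library left out (38 without Het library 2); members called higher were 5, 1 and 0 to 1. Hom against Het called 113, 15 and 0 to 35; members called lower were 3, 2 and 0 to 1. Hom against WT called 2 with total counts and 13 with no filter. In fibroblast m5C, Het called 2 with total counts, 2 with no filter and 0 by DESeq2, with 0 members lower in each, and Hom called 0 by DESeq2 and 2 without the 4 dominant genes. Over both tissues, Het called 10 and Hom 10 with no filter (1 member lower), and 0 to 10 and 0 to 17 with a library left out (0 to 1 member higher and 0 to 1 lower). The antibodies in WT alone called 3394, and 3056 with the replicate block. The Het interaction called 12 with no filter (1 member higher) and 0 to 6 with a library left out, and the Hom interaction 1 with no filter. The Dnmt1 RIP over input called 4051 with total counts and 285 by DESeq2; the m5C RIP over input called 8 with total counts, 347 with no filter, 387 by DESeq2, and 5 to 5919 with a library left out, with 0 to 6 members higher (5919 of 14286 genes and 6 members with the fibroblast input alone, which is then assumed to vary like the other groups). The cause of these moves was not tested. Against input, Eln turned in the Dnmt1 RIP to 0.92 with total counts, 0.023 with no filter and -0.84 to 0.18 with a library left out, and Lox to 0.48 with total counts. The m5C RIP over input depended on which input was used: the log2 fold changes ran, without the fibroblast and without the cortex input, from -0.40 to 4.76 for Ltbp2, -0.60 to 1.17 for Emilin1, -0.46 to 10.44 for Fbln1 (0 counts in the fibroblast input, so that the upper value is no measured fold), -0.24 to 4.21 for Fbln2, -0.45 to 3.78 for Fbln5, -0.38 to 2.55 for Efemp1, -1.59 to 3.01 for Lox and -0.74 to 4.89 for Loxl1.

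Same-numbered Dnmt1 RIP libraries share only a number: their deviations from the group means correlated at -0.01 between WT and Het, 0.20 between WT and Hom and 0.06 between Het and Hom. The replicate block called 0 genes in all 3 comparisons, with member medians of 2.07 for Het against WT, 0.32 for Hom against WT and -1.75 for Hom against Het. The summed level of Het over WT ran from 3.63 to 7.97 with a library left out, that of Hom over WT from 0.92 to 1.90, and that of Hom over Het from 0.17 to 0.35. Depth limits the WT Dnmt1 RIP and the fibroblast input, where members had at most 37 counts.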
